A study of Homo sapiens with 21 samples.

Results

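The genes described here are 53 genes of DNA replication and S phase, taken by symbol from a list of licensing factors, polymerases, clamp and fork factors, nucleotide enzymes and E2F regulators. All 53 were found among the 27142 genes of the expression table, and all 53 passed the filter on low values that left 13679 genes for testing. They were measured by stranded mRNA sequencing in HEK 293FT cells, a human embryonic kidney line that carries the SV40 large T antigen. Cells at passage 8 to 12 received plasmids with a Lipofectamine reagent, and RNA was taken 48 h later in every group. 9 libraries came from cells given a short hairpin RNA (shRNA), which is processed into a small RNA that guides Argonaute to messenger RNA: 3 with a non-targeting (NT) shRNA, 3 with an ANXA4 shRNA and 3 with a B4GALNT1 shRNA. A further 6 came from cells given RfxCasR, a CRISPR effector that is led to messenger RNA by a guide and cuts it there, with a single guide RNA (gRNA): 3 with an NT gRNA and 3 with a B4GALNT1 gRNA. The last 6 came from cells given RfxCasR with an array of guides, 3 labelled NT array and 3 labelled ANXA4 array. Neither target is a replication gene: ANXA4 encodes a phospholipid-binding annexin and B4GALNT1 an enzyme of ganglioside synthesis. The title of the series names the question: the specificity of RfxCasR beside that of matching shRNAs.

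Replication starts at origins that the origin recognition complex marks and that CDC6 and CDT1 load with the ring-shaped MCM2 to MCM7 helicase, a step called licensing, which geminin (GMNN) blocks once S phase has begun. CDC45 and the GINS complex then join the rings into an active helicase, and polymerases alpha, delta and epsilon copy the strands with the help of the sliding clamp PCNA, its loader RFC and the single-strand binding complex RPA. Many of these genes are transcribed by E2F factors. The retinoblastoma protein holds these factors back until cyclin-dependent kinases act, CDK2 with cyclin E among them. The large T antigen of HEK 293FT cells binds the retinoblastoma protein.

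E2F factors bind short sites near the start of their targets, so the 300-base windows around the annotated starts (250 bases before and 50 after, RefSeq, build GRCh38.p14, another build than that of the expression table) were searched. The motif searched was TTTCCCGC, TTTGGCGC, TTTCGCGC or TTTGCCGC on either strand, and overlapping matches were all counted. Of the 45 members with a window, 26 (57.8%) held at least 1 match, against 684 of 9985 tested genes with a window (6.85%) and 1090 of 27305 genes in all (3.99%). Some genes have several windows: 27 of 63 member windows (42.9%) and 3.31% of all 35116 windows held a match. By role, the matches were in 7 of 9 licensing genes, 3 of 5 helicase activation genes, 5 of 10 polymerase and primase genes, 3 of 9 clamp, RPA and flap genes, 2 of 5 nucleotide genes and 6 of 7 E2F and G1/S genes. The CHR motif of many mitotic genes, TTTGAA on either strand, was in 4 of 45 members (8.89%), against 13.4% of tested genes and 18.2% of all genes with a window. RPA2, RPA3, MCM5, CDK2, MCM4, POLD3, CCNE2 and GINS4 had no window under their symbols and were not searched for either motif. A match describes letters in a window and shows no binding. Only these exact sequences in these windows were searched, so the lack of a match does not show that a gene has no E2F site.

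The 200 bases that end just before the start are shown for 6 genes that carry the results, with the E2F motif matches in capitals. E2F1 and ZNF367, the members with the largest falls between the control groups, and MCM6, a subunit of the helicase, have their matches close to the start or in overlapping pairs. DUT, the member with the largest fall under the ANXA4 shRNA, has 2 matches in the 1 of its 4 windows that is shown, the one with the most matches. CCNE1 and POLE3, with the next largest fall under the ANXA4 shRNA and the largest under the B4GALNT1 shRNA, have none in any window (POLE3 has 3 windows, of which 1 is shown).
E2F1: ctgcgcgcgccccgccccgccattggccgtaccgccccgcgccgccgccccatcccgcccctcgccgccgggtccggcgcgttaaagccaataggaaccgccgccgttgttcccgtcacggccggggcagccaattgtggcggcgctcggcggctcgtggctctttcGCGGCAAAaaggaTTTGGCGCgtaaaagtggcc
ZNF367: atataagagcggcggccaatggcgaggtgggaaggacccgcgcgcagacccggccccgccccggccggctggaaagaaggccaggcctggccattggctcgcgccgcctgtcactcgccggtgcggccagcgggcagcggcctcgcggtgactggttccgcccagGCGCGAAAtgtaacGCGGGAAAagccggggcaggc
MCM6: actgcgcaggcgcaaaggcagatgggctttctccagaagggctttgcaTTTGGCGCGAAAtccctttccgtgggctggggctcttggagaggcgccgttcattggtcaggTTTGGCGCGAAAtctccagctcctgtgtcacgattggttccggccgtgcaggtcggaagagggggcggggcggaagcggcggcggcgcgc
DUT: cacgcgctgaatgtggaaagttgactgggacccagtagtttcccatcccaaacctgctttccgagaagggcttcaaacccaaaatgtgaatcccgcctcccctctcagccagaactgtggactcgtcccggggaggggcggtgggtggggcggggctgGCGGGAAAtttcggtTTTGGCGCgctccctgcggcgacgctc
CCNE1: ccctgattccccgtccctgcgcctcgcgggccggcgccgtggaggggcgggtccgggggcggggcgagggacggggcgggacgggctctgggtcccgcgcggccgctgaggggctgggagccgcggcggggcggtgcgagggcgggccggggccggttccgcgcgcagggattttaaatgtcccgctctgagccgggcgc
POLE3: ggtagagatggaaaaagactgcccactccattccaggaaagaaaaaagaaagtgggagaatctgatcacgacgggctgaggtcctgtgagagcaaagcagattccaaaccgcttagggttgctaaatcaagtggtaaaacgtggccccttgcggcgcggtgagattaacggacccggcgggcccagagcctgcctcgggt
These stretches lie at chr20:33686386-33686585, minus strand (E2F1), chr9:96418371-96418570, minus strand (ZNF367), chr2:135876444-135876643, minus strand (MCM6), chr15:48331997-48332196, plus strand (DUT), chr19:29811791-29811990, plus strand (CCNE1) and chr9:113410750-113410949, minus strand (POLE3), each printed 5' to 3' on the strand of its gene. In E2F1 the matches end 26 and 13 bases before the start, and in ZNF367 28 and 14 bases before it. MCM6 has 2 pairs of matches on opposite strands that share bases, the nearer pair ending 79 bases before the start. The DUT matches end 35 and 20 bases before the start.

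All values below are FPKM, fragments per kilobase of exon and per M reads, and differences are between means of log2(FPKM + 1), a scale on which genes of low level change less than in FPKM itself. A gene is said to have risen or fallen only where limma, fitted on all 13679 genes and 21 libraries, gave a Benjamini-Hochberg adjusted p under 0.05. The labels call the replicates biological without saying more, so the p-values speak for the spread of these libraries only. The read depth recovered from the values was 34.7 to 39.5 M for arrays and 21.4 to 30.7 M for all other libraries. No pair of replicates was a duplicate. The targets checked the labels of 5 of the groups: ANXA4 was at 5.90 FPKM with the NT shRNA and 2.40 with the ANXA4 shRNA, and B4GALNT1 went from 4.08 to 2.78 with its shRNA and from 5.89 to 2.21 with its gRNA. The array labels did not match the target, with ANXA4 at 7.04 FPKM in the libraries labelled ANXA4 array and 3.03 in those labelled NT array, so both array groups are named as labelled and no direction is drawn between them. The authors' deposited table for the arrays gives ANXA4 a log2 fold change of -1.21, against 1.00 from the labelled libraries. Signs in that table were opposite to those from the labelled libraries for 49 of 53 members, for 93.2% of all tested genes in both sources and for all 40 genes called by either. In the authors' tables for the ANXA4 shRNA, B4GALNT1 shRNA and B4GALNT1 gRNA, 0, 4 and 4 members had the opposite sign, none of them called. Of 15 genes that mark this cell line, 11 were at 1 FPKM or more in every library and 2 below 1 in every library. Of 12 markers of other cell types, 8 were below 1 FPKM in every library, with PTPRC, CD3E and HBB at or near 0, and COL1A1 and EPCAM were at 1 or more in every library. The summed level of those 12 was 13.46 to 13.95 FPKM in the NT shRNA libraries, 11.04 to 11.75 with the ANXA4 shRNA, 11.97 to 13.55 with the B4GALNT1 shRNA, 14.22 to 16.9 with single guides and 9.73 to 11.45 in the arrays. The cell line's own markers summed to 573.7 to 592.5 FPKM in the NT shRNA libraries, 728.9 to 780.7 with the other 2 shRNAs and 789.6 to 897.5 with RfxCasR. VIM alone ran from 388.1 to 681.8 FPKM over the 21 libraries and KRT8, the next highest, from 44.8 to 75.1, so these sums rest largely on VIM. The part of either marker list in the results was not tested.

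Every member was well expressed in every library, from 5.21 FPKM (ZNF367 in an NT gRNA library) to 328.9 FPKM (PCNA in an array library), and the smallest number of reads behind a value was 251 (CCNE1). The ratio of the highest to the lowest of the 7 group means ran from 1.13 to 3.96, with a median of 1.40. POLE3, a histone-fold subunit of polymerase epsilon, had the widest ratio. The plot of all members by library shows 2 patterns that repeat over the roles. The NT shRNA libraries were high: that group had the highest mean for 25 of 53 members (47.2%), against 22.8% of all tested genes. The ANXA4 shRNA libraries were low: that group had the lowest mean for 18 members (34%), against 17.6% of all tested genes.

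**Figure D1:**
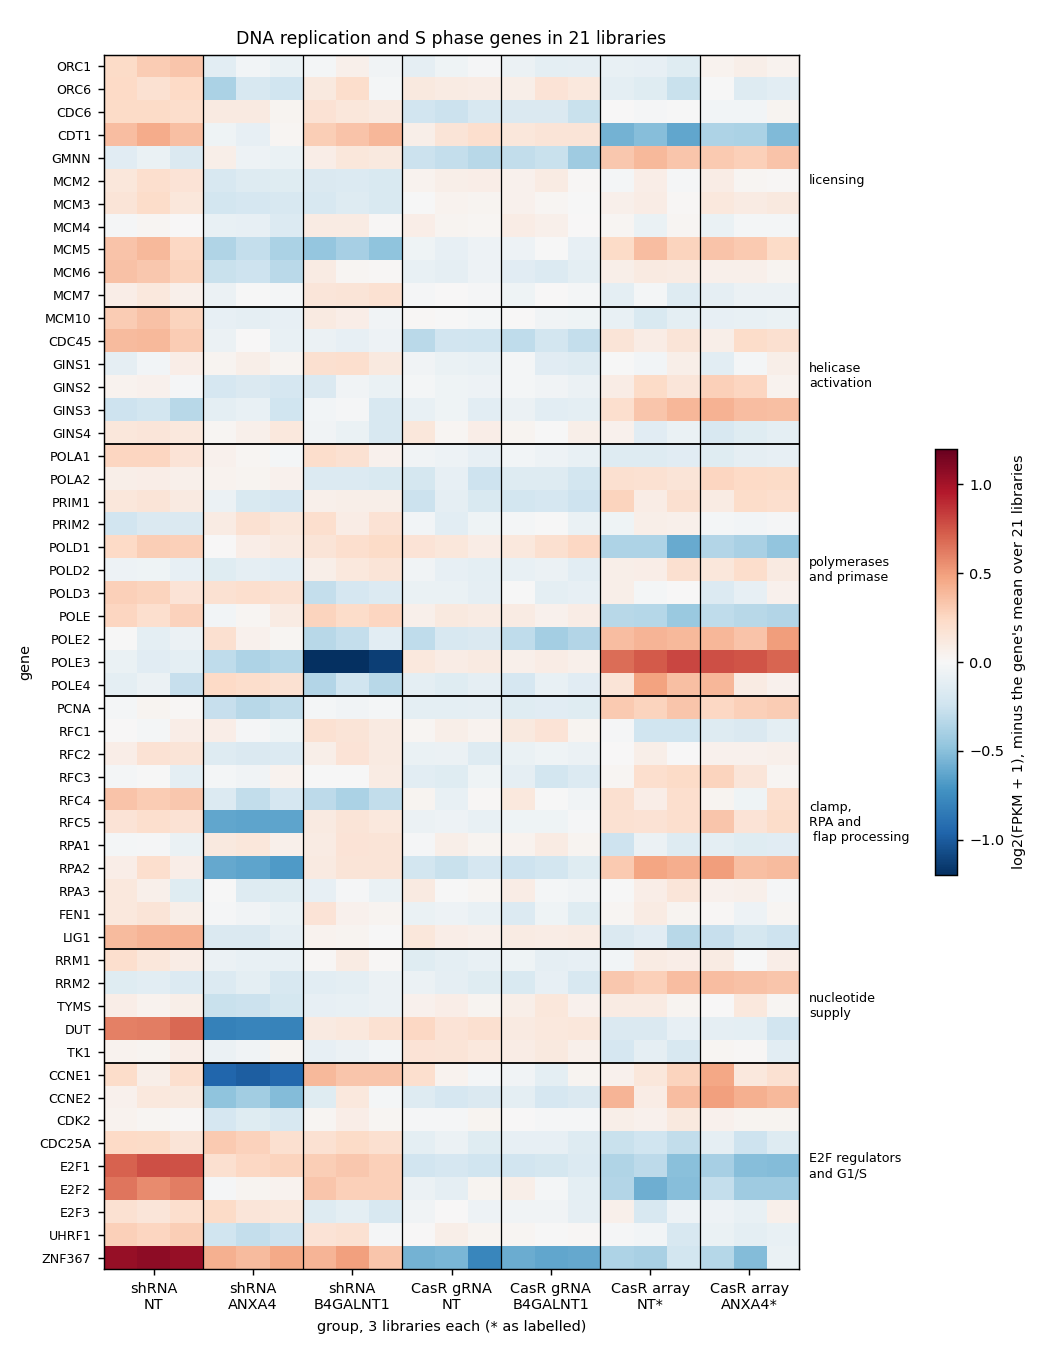
Level of the 53 members (rows, by role) in the 21 libraries (columns, 3 per group), as log2(FPKM + 1) minus the gene's mean over the 21 libraries; red is above and blue below that mean. The 3 NT shRNA columns are red for most rows, and POLE3 ranges from 26.9 FPKM with the B4GALNT1 shRNA to 115 FPKM in the array libraries.

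For 14 members (26.4%, against 9.25% of all tested genes) each of the 3 NT shRNA libraries lay above each of the other 18: CDC45, CDC6, DUT, E2F1, E2F2, LIG1, MCM10, MCM2, MCM3, MCM6, ORC1, RFC4, UHRF1 and ZNF367. For 13 members (24.5%, against 7.61%) each ANXA4 shRNA library lay below each of the other 18: CCNE1, CCNE2, CDK2, DUT, GINS2, MCM3, MCM4, MCM6, PCNA, RFC5, RPA2, TYMS and UHRF1. DUT, MCM3, MCM6 and UHRF1 stand in both lists. For MCM5, POLE3 and RFC4 (5.66%, against 4.99%) the B4GALNT1 shRNA libraries lay below the rest, and for GINS1 and MCM7 (3.77%, against 2.54%) above it. PRIM2, the large primase subunit, was the 1 member whose NT shRNA libraries lay below all others (6.94% of all tested genes did).

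With the ANXA4 shRNA, 35 of 53 members fell and 5 rose against the NT shRNA, where 26.3% of all tested genes fell and 25.6% rose. The median member difference was -0.22 log2, against -0.008 over all tested genes. With the B4GALNT1 shRNA, 24 members fell and 6 rose against the same NT shRNA libraries, where 26% of all genes fell and 18.4% rose. The median was -0.10 (all genes, -0.038). When each library was centred on its median, the B4GALNT1 shRNA counts became 20 lower and 10 higher, and the share of rises among all called genes went from 41.5% to 53.3%. Between the control groups, RfxCasR with the NT gRNA against the NT shRNA, 34 members were lower and 4 higher (all genes, 26.5% and 22.4%), with a median of -0.16 (all genes, -0.019). Median-centring gave 30 lower and 6 higher there, with the share of rises over all genes going from 45.9% to 56.4%. These comparisons share the NT shRNA libraries, so they are not independent of each other. In bulk RNA, fewer cells in S phase and less of these transcripts per cell cannot be told apart.

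The ANXA4 and B4GALNT1 shRNA libraries, compared directly and so without the shared control, differed in 34 members. Of these, 27 were lower and 7 higher with the ANXA4 shRNA, where 19.6% of all tested genes were lower and 27.1% higher. The member median was -0.12 and that of all genes 0.033. With median-centred libraries the member counts were 31 and 7, and the share of rises over all called genes went from 58.0% to 48.0%.

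**Figure D2:**
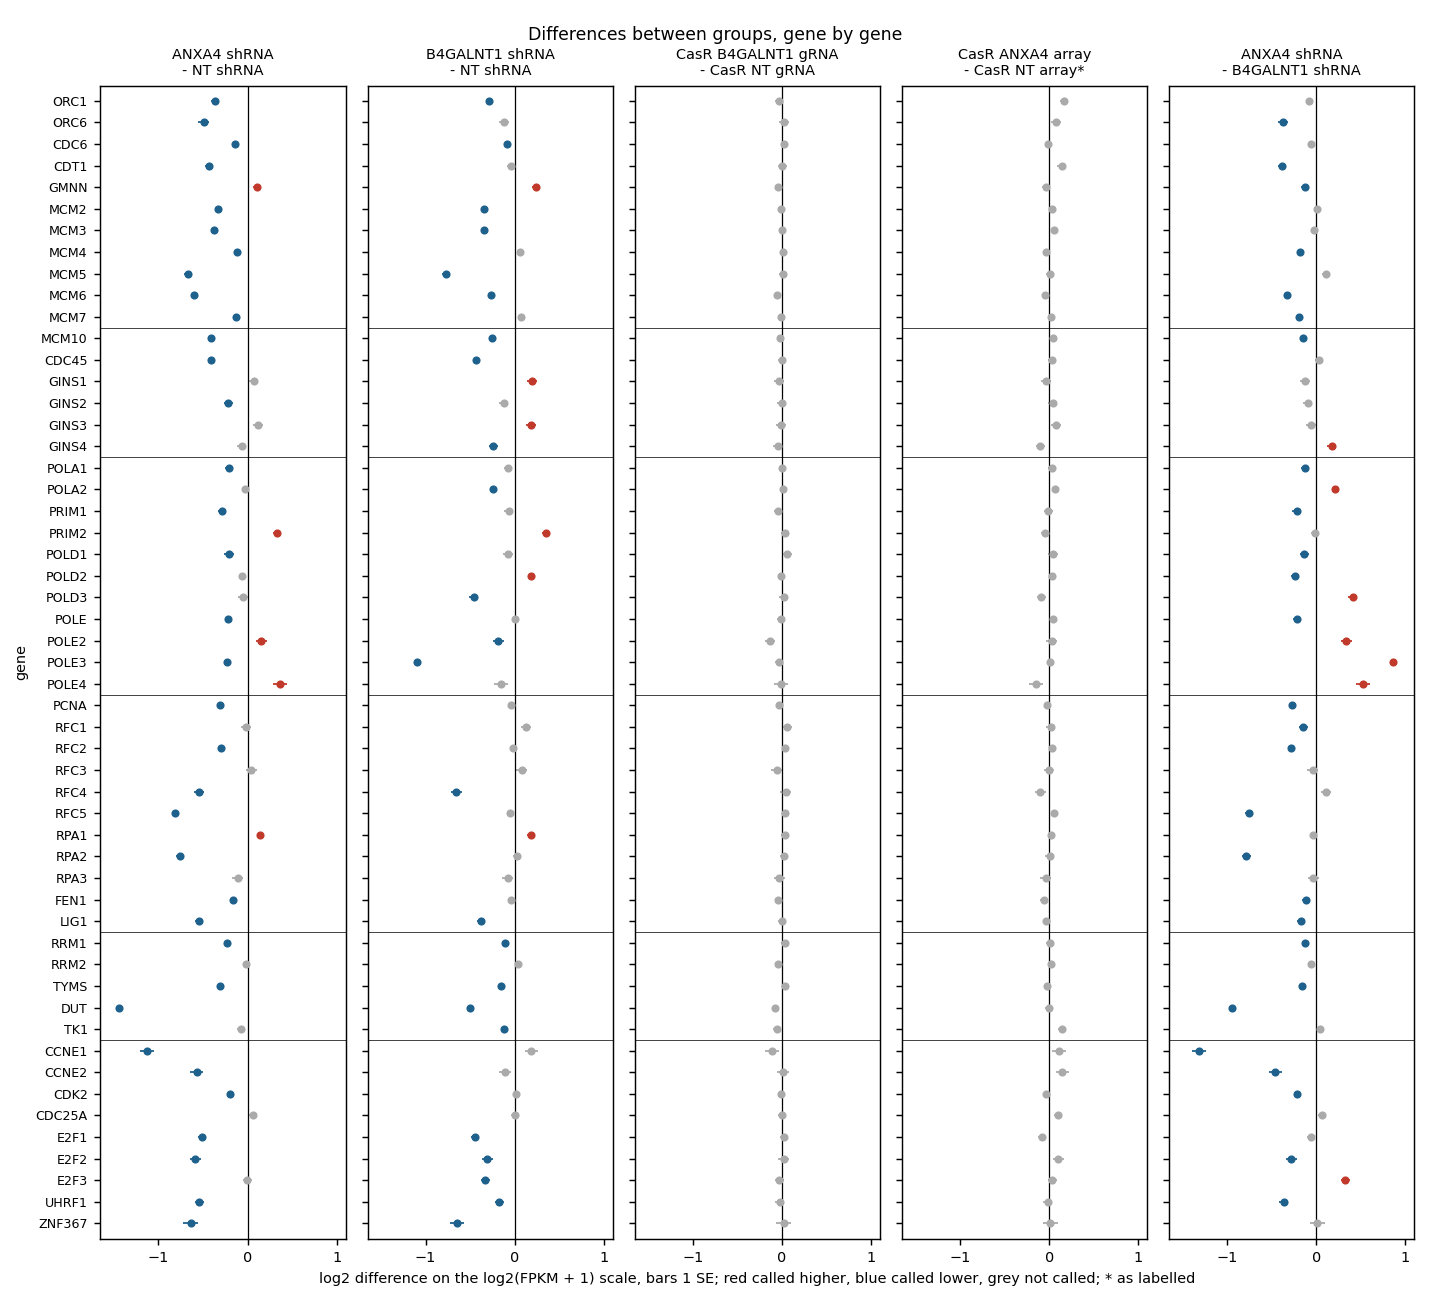
Log2 difference on the log2(FPKM + 1) scale (horizontal axis) for the 53 members (rows, by role) in 5 comparisons; points are limma estimates, bars 1 SE, red called higher, blue called lower, grey not called. The ANXA4 shRNA panel has 35 blue and 5 red points, and the RfxCasR gRNA and array panels have none of either colour.

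The licensing genes fell almost together with the ANXA4 shRNA: 10 of 11 were lower, and GMNN, the inhibitor of licensing, was higher. With the B4GALNT1 shRNA 6 were lower and GMNN again higher, and 4 were not called. MCM5, a subunit of the helicase ring (NM_006739, hg19 chromosome 22, 35796116 to 35820495, plus strand), read 90.4, 93.2 and 84.6 FPKM in the NT shRNA libraries. It read 54.9, 58.2 and 54.4 with the ANXA4 shRNA and 51.1, 53.7 and 50.5 with the B4GALNT1 shRNA. Both shRNA groups lay below every NT shRNA library and did not overlap each other. MCM5 fell by 0.67 log2 (SE 0.045, adjusted p = 3.44e-10) with the ANXA4 shRNA and by 0.78 (SE 0.045, adjusted p = 8.54e-11) with the B4GALNT1 shRNA. The direct difference between them, 0.11, did not pass (adjusted p = 0.0551), but passed in 5 of the alternatives run.

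In the RfxCasR libraries MCM5 read 68.5, 66.1 and 67.98 FPKM with the NT gRNA and 67.9, 70.96 and 66.3 with the B4GALNT1 gRNA, between the shRNA levels. In the arrays it read 83.6, 92.02 and 85.9 (labelled NT) and 90.4, 88.6 and 83.5 (labelled ANXA4), overlapping the NT shRNA libraries. The 7 group means thus ordered as NT shRNA, the array groups, the single-guide groups, ANXA4 shRNA and B4GALNT1 shRNA. The NT shRNA and array groups overlapped one another, as did the single-guide groups, and the other neighbours in that order did not overlap.

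The 6 subunits of the helicase ring did not move by one amount. With the ANXA4 shRNA the differences were -0.33 for MCM2, -0.37 for MCM3, -0.12 for MCM4, -0.67 for MCM5, -0.60 for MCM6 and -0.12 for MCM7, and all 6 fell. With the B4GALNT1 shRNA MCM2 (-0.34), MCM3 (-0.34), MCM5 and MCM6 (-0.27) fell, while MCM4 (0.064) and MCM7 (0.072) were not called. The authors' deposited table called both higher, MCM4 by 0.11 (adjusted p = 0.00239) and MCM7 by 0.11 (adjusted p = 5.85e-05). MCM6 read 83.6, 82.1 and 79.1 FPKM with the NT shRNA, 53.99, 54.9 and 52.05 with the ANXA4 shRNA and 69.8, 66.6 and 65.96 with the B4GALNT1 shRNA, with no overlap among the 3 groups. The direct test gave a lower level with the ANXA4 than with the B4GALNT1 shRNA for MCM4 (-0.18), MCM6 (-0.33) and MCM7 (-0.20).

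Of the loaders, CDT1 fell by 0.43 under the ANXA4 shRNA (from 102 to 75.4 FPKM) and was at 98.99 FPKM with the B4GALNT1 shRNA, a difference of -0.045 that was not called. CDC6 fell by 0.14 and 0.084, the latter not called in the authors' deposited table (-0.042, adjusted p = 0.381). ORC1, the largest origin recognition subunit, fell by 0.37 and 0.29. ORC6, the smallest, fell by 0.49 with the ANXA4 shRNA and was not called with the B4GALNT1 shRNA (-0.12). GMNN read 95.7, 99.5 and 92.9 FPKM with the NT shRNA, 111, 101 and 99.5 with the ANXA4 shRNA and 111, 115 and 114 with the B4GALNT1 shRNA. It rose by 0.11 (adjusted p = 0.044) and 0.24 (adjusted p = 1.88e-04), and the libraries of the 3 groups did not overlap, although the highest control and lowest ANXA4 shRNA libraries were nearly level.

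Among the 6 helicase activation genes, 3 fell with the ANXA4 shRNA and none rose; with the B4GALNT1 shRNA 3 fell and 2 rose. CDC45, which joins the ring at the start of S phase, fell from 55.1 FPKM to 41.4 and 40.6, by 0.41 and 0.43. MCM10, a factor that helps the rings part, fell by 0.41 and 0.26. The 4 GINS subunits, which form 1 complex, split. GINS2 fell with the ANXA4 shRNA (-0.22) and GINS4 with the B4GALNT1 shRNA (-0.24), while GINS1 (0.19) and GINS3 (0.18) rose with the latter. GINS1 read 25.4, 26.7 and 28.9 FPKM with the NT shRNA, 28.05, 28.7 and 28.1 with the ANXA4 shRNA and 31.5, 31.6 and 29.7 with the B4GALNT1 shRNA, whose libraries lay above those of every other group. GINS3 had its highest levels in the arrays (28.9 and 30.4 FPKM).

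All 4 subunits of polymerase epsilon differed between the 2 targeting shRNAs in the direct comparison, POLE3, POLE4 and POLE2 being higher and POLE lower with the ANXA4 shRNA. POLE3 (NM_001278255, hg19 chromosome 9, 116169519 to 116173029, minus strand) read 62.3, 60.1 and 60.8 FPKM with the NT shRNA, 53.1, 50.7 and 51.7 with the ANXA4 shRNA and 27.7, 26.9 and 29.6 with the B4GALNT1 shRNA. The 3 groups did not overlap, and POLE3 fell by 0.23 (SE 0.037, adjusted p = 3.31e-05) and by 1.09 (SE 0.037, adjusted p = 6.91e-14). In the direct comparison it was 0.86 higher with the ANXA4 shRNA (SE 0.037, adjusted p = 1.17e-12), the largest such rise among members. The RfxCasR libraries were higher: 72.001, 70.2 and 71.1 FPKM with the NT gRNA and 68.6, 69.95 and 69.02 with the B4GALNT1 gRNA. The arrays were highest, at 105, 111 and 115 (labelled NT) and 113, 112 and 108 (labelled ANXA4). In the order of the 7 means only the array groups overlapped their neighbour.

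POLE4, the histone-fold partner of POLE3, went the other way with the ANXA4 shRNA. It read 47.7, 49.2 and 42.5 FPKM with the NT shRNA, 61.4, 59.997 and 58.8 with the ANXA4 shRNA and 40.2, 43.7 and 40.9 with the B4GALNT1 shRNA. POLE4 rose by 0.37 with the ANXA4 shRNA (adjusted p = 7.04e-04) and was not called with the B4GALNT1 shRNA (-0.15, adjusted p = 0.124), whose libraries overlapped the control. POLE2, the B subunit, read 11.8, 10.8 and 11.3 FPKM with the NT shRNA, 13.7, 12.4 and 12.1 with the ANXA4 shRNA and 9.24, 9.57 and 10.8 with the B4GALNT1 shRNA. It rose by 0.15 (adjusted p = 0.0357) and fell by 0.18 (adjusted p = 0.0166). The authors' deposited tables called neither difference of POLE2 (0.18, adjusted p = 0.134, and -0.16, adjusted p = 0.22). The catalytic subunit POLE fell by 0.21 with the ANXA4 shRNA and was not called with the B4GALNT1 shRNA (0.003).

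**Figure D3:**
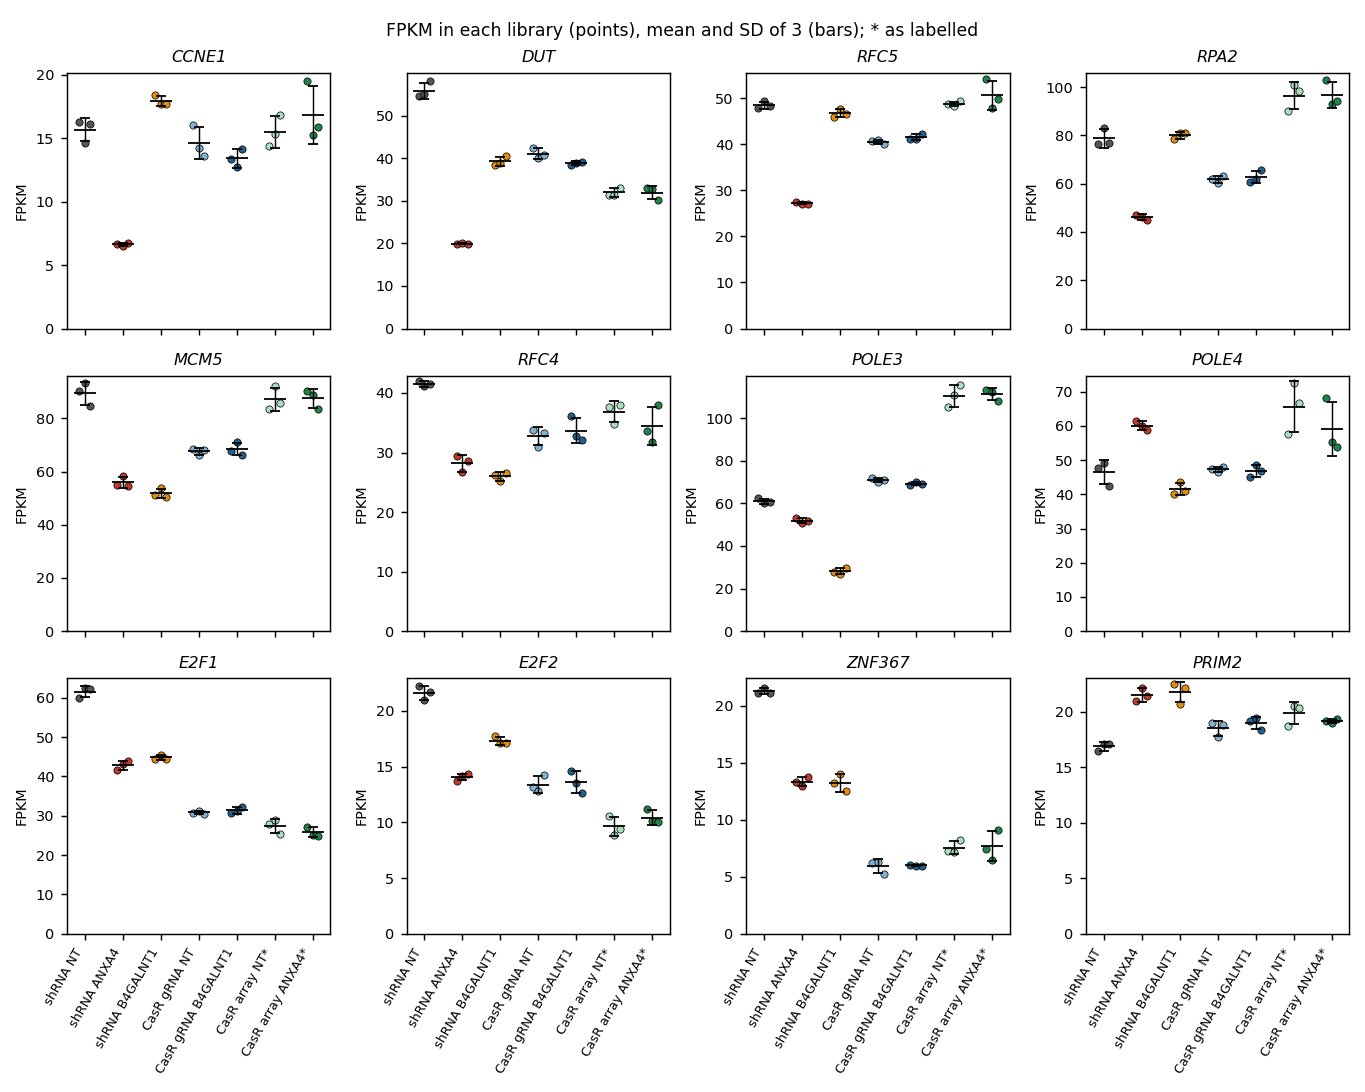
FPKM (vertical axis, from 0) of 12 members in each library (points), with the mean and SD of the 3 libraries of each group (bars), 7 groups along the horizontal axis. CCNE1, DUT, RFC5 and RPA2 are lowest with the ANXA4 shRNA, MCM5, RFC4 and POLE3 with the B4GALNT1 shRNA, and E2F1, E2F2 and ZNF367 are highest with the NT shRNA.

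Over all 11 polymerase and primase genes, 5 fell and 3 rose with the ANXA4 shRNA, and under the B4GALNT1 shRNA 4 fell and 2 rose. The direct comparison of the shRNAs called 10 of 11, 5 in each direction. POLD3, an accessory subunit of polymerase delta, read 20.05, 19.7 and 18.3 FPKM with the NT shRNA, 18.5, 18.7 and 18.5 with the ANXA4 shRNA and 13.1, 13.9 and 14.4 with the B4GALNT1 shRNA. It fell by 0.46 with the B4GALNT1 shRNA and was 0.41 higher with the ANXA4 shRNA in the direct comparison (adjusted p = 3.01e-06). POLD2 rose with the B4GALNT1 shRNA (0.18), and the catalytic POLD1 fell with the ANXA4 shRNA (-0.21).

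The primase subunits parted. PRIM2 read 16.4, 17.1 and 17.1 FPKM with the NT shRNA, 20.9, 22.1 and 21.4 with the ANXA4 shRNA and 22.5, 20.7 and 22.1 with the B4GALNT1 shRNA. Both shRNA groups lay above the control and overlapped each other, and PRIM2 rose by 0.33 (adjusted p = 2.37e-06) and 0.35 (adjusted p = 1.93e-06). PRIM1, the catalytic subunit, fell by 0.29 with the ANXA4 shRNA and was not called with the B4GALNT1 shRNA (-0.068). Of their polymerase alpha partners, POLA1 fell by 0.21 with the ANXA4 shRNA and POLA2 by 0.24 with the B4GALNT1 shRNA.

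In the group of clamp, RPA and flap processing genes, 7 of 11 fell and RPA1 rose with the ANXA4 shRNA, against 2 falls and the rise of RPA1 with the B4GALNT1 shRNA. The direct comparison put 7 lower and none higher with the ANXA4 shRNA. RFC5, a small subunit of the clamp loader (NM_001206801, hg19 chromosome 12, 118454466 to 118470042, plus strand), read 47.8, 49.3 and 48.3 FPKM with the NT shRNA, 27.4, 27.1 and 27.1 with the ANXA4 shRNA and 45.9, 47.7 and 46.6 with the B4GALNT1 shRNA. It fell by 0.81 with the ANXA4 shRNA (SE 0.035, adjusted p = 7.00e-13), and the direct difference was -0.76 (adjusted p = 2.76e-12). Its neighbour in the complex, RFC4, read 42.04, 41.1 and 41.5 FPKM with the NT shRNA, 29.4, 26.7 and 28.5 with the ANXA4 shRNA and 26.3, 25.2 and 26.6 with the B4GALNT1 shRNA. RFC4 fell by 0.54 and 0.65, and the direct difference of 0.11 did not pass (adjusted p = 0.133). RFC2 fell with the ANXA4 shRNA (-0.30), and RFC1 and RFC3 were not called with either. The authors' deposited table called RFC1 higher with the B4GALNT1 shRNA (0.17, adjusted p = 1.47e-04).

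Within the trimer that coats single-stranded DNA, RPA2 read 76.5, 83.2 and 76.7 FPKM with the NT shRNA, 47.1, 46.4 and 44.8 with the ANXA4 shRNA and 78.3, 80.9 and 80.8 with the B4GALNT1 shRNA. The ANXA4 shRNA libraries lay below all others, and RPA2 fell by 0.76 (SE 0.047, adjusted p = 1.04e-10). The large subunit RPA1 read 73.4, 73.9 and 70.8 FPKM with the NT shRNA and 81.1, 82.002 and 77.9 with the ANXA4 shRNA, a rise of 0.14 (adjusted p = 0.00468). The small RPA3 was not called (-0.11). The clamp PCNA went from 264 to 212 FPKM under the ANXA4 shRNA, a fall (-0.31). LIG1, which seals Okazaki fragments, fell by 0.55 with the ANXA4 and 0.38 with the B4GALNT1 shRNA, and FEN1, which trims their flaps, by 0.16 with the ANXA4 shRNA.

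Nucleotide supply was led by DUT (NM_001948, hg19 chromosome 15, 48624365 to 48635570, plus strand), the dUTPase that keeps uracil out of DNA. DUT read 54.6, 55.1 and 58.1 FPKM with the NT shRNA, 19.8, 20.2 and 19.97 with the ANXA4 shRNA and 38.5, 38.9 and 40.5 with the B4GALNT1 shRNA. The 3 groups did not overlap. DUT fell by 1.44 with the ANXA4 shRNA (SE 0.038, adjusted p = 1.29e-15), the largest change of any member in that comparison, and by 0.50 with the B4GALNT1 shRNA (SE 0.038, adjusted p = 4.30e-09). In the direct comparison it was -0.94 (adjusted p = 4.98e-13). With RfxCasR it read 42.5, 40.1 and 40.7 FPKM (NT gRNA), 38.5, 38.99 and 39.2 (B4GALNT1 gRNA), 31.4, 31.4 and 33.1 (labelled NT array) and 32.9, 32.7 and 30.1 (labelled ANXA4 array). The levels of the B4GALNT1 shRNA and the single-guide groups overlapped in the order of means, as did the arrays, and the ANXA4 shRNA stood apart below all of them.

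The other nucleotide genes moved less. TYMS, thymidylate synthase, fell by 0.31 and 0.15, and RRM1, the large ribonucleotide reductase subunit, by 0.23 and 0.10. The small subunit RRM2 was not called with either shRNA (-0.014 and 0.041). Thymidine kinase TK1 fell with the B4GALNT1 shRNA (-0.12) and was not called with the ANXA4 shRNA (-0.078). For the B4GALNT1 shRNA the authors' deposited table called neither RRM1 (-0.065, adjusted p = 0.0944) nor TK1 (-0.078, adjusted p = 0.108). The RRM1 libraries of that shRNA overlapped the control. Reads of DUT, for which RefSeq names 8 pseudogenes, and of 12 other members that have pseudogenes named after them, among them PCNA, RPA2, RFC5 and POLE4, may be shared with those copies, so their levels carry that uncertainty.

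CCNE1, cyclin E1 (NM_001322259, hg19 chromosome 19, 30302901 to 30315224, plus strand), read 16.3, 14.6 and 16.1 FPKM with the NT shRNA and 6.67, 6.50 and 6.72 with the ANXA4 shRNA. It read 18.4, 17.7 and 17.7 with the B4GALNT1 shRNA, just above every NT shRNA library. CCNE1 fell by 1.13 with the ANXA4 shRNA (SE 0.077, adjusted p = 4.52e-10), and the B4GALNT1 shRNA difference of 0.19 did not pass (adjusted p = 0.057). That last difference passed in 8 of the alternatives run, among them the authors' deposited table, with 0.24 (adjusted p = 0.0116). The direct difference between the shRNAs was -1.31 (SE 0.077, adjusted p = 7.69e-11). With RfxCasR it read 16.04, 14.2 and 13.6 FPKM (NT gRNA), 13.4, 12.7 and 14.2 (B4GALNT1 gRNA), 14.4, 15.3 and 16.9 (labelled NT array) and 19.5, 15.2 and 15.9 (labelled ANXA4 array). In the order of the 7 means every group overlapped its neighbour except the ANXA4 shRNA at the bottom.

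Cyclin E2 (CCNE2) also fell with the ANXA4 shRNA (-0.57, from 10.3 to 6.58 FPKM), and CDK2, the kinase that both cyclins activate, fell by 0.20. Neither was called with the B4GALNT1 shRNA (-0.11 and 0.017), and both were lower with the ANXA4 shRNA in the direct comparison (-0.46 and -0.22). UHRF1, which carries DNA methylation through S phase, fell with both shRNAs (-0.54 and -0.17). CDC25A, the phosphatase that activates CDK2, was not called with either (0.056 and -0.002).

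E2F1 and E2F2 were highest in the NT shRNA libraries. E2F1 (NM_005225, hg19 chromosome 20, 32263292 to 32274210, minus strand), an activator, read 59.9, 62.6 and 62.2 FPKM there, 41.5, 43.1 and 43.9 with the ANXA4 shRNA and 44.5, 45.6 and 44.5 with the B4GALNT1 shRNA. With RfxCasR it read 30.7, 31.3 and 30.5 (NT gRNA), 30.6, 31.2 and 32.2 (B4GALNT1 gRNA), 27.9, 28.9 and 25.3 (labelled NT array) and 27.2, 25.1 and 24.96 (labelled ANXA4 array). The 9 shRNA libraries all lay above the 12 RfxCasR libraries. E2F1 fell by 0.51 with the ANXA4 shRNA and 0.45 with the B4GALNT1 shRNA, and it was 0.97 lower with the NT gRNA than with the NT shRNA (SE 0.043, adjusted p = 4.39e-12). E2F2 read 22.2, 20.98 and 21.7 FPKM with the NT shRNA, 13.7, 14.2 and 14.3 with the ANXA4 shRNA, 17.7, 17.1 and 17.1 with the B4GALNT1 shRNA and 13.2, 12.8 and 14.2 with the NT gRNA. The NT shRNA libraries were the highest, and the NT gRNA difference from them was -0.65 (adjusted p = 5.96e-08). E2F3, another activator, was not called with the ANXA4 shRNA (-0.004) and fell with the B4GALNT1 shRNA (-0.33).

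ZNF367 (NM_153695, hg19 chromosome 9, 99148225 to 99180669, minus strand), a zinc finger gene listed with the E2F regulators, had the largest difference between the control groups. It read 21.2, 21.6 and 21.1 FPKM with the NT shRNA and 6.23, 6.33 and 5.21 with the NT gRNA, a difference of -1.69 (SE 0.083, adjusted p = 1.51e-11). With the ANXA4 shRNA it read 13.4, 12.9 and 13.7 and with the B4GALNT1 shRNA 13.2, 14.03 and 12.5, which overlapped each other and fell short of the NT shRNA by 0.64 and 0.65. The B4GALNT1 gRNA libraries read 6.07, 5.93 and 5.98, and the arrays 7.28, 7.20 and 8.20 (labelled NT) and 7.43, 6.49 and 9.13 (labelled ANXA4).

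Between the NT gRNA and the NT shRNA libraries, falls spread over the roles: 9 of 11 licensing genes, 2 of 6 helicase activation genes, 7 of 11 polymerase and primase genes, 7 of 11 clamp, RPA and flap genes, 2 of 5 nucleotide genes and 7 of 9 E2F and G1/S genes were lower with the NT gRNA. The 4 rises were POLE3 (0.22), GINS3 (0.18), PRIM2 (0.12) and TK1 (0.10). TK1, GINS3 and PRIM2 are small differences: GINS3 read 21.7, 22.2 and 21.04 FPKM with the NT gRNA and 19.3, 19.7 and 18.1 with the NT shRNA, and PRIM2 read 18.99, 17.7 and 18.8 with the NT gRNA. In both genes the groups did not overlap. CDC45 (-0.62) and CDC6 (-0.45) had the largest falls among the licensing and helicase genes. The 2 control groups differ in effector, plasmid and guide, which cannot be told apart here.

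With RfxCasR, the B4GALNT1 gRNA against the NT gRNA moved no member past the threshold: limma called 0 higher and 0 lower, where 0% and 0.00731% of all tested genes were called. At an unadjusted p under 0.05 there was 1 member, POLE2 (-0.13), and voom on the recovered reads called 0. The member differences ran from -0.13 to 0.060 with a median SE of 0.042, and their median was -0.002. CCNE1 was at -0.11, DUT at -0.077, POLE3 at -0.038, RFC5 at 0.036 and MCM5 at 0.017, none of them called. The 2 groups' libraries did not overlap for 7 members (13.2%, against 11.8% of all tested genes), 6 of them lower and RFC5 higher with the B4GALNT1 gRNA.

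The difference between the 2 B4GALNT1 knockdowns was tested as such, shRNA against its control minus gRNA against its control. 19 members were lower and 5 higher by this test, where 16.9% and 12.9% of all tested genes were. The member median was -0.10 and that of all genes -0.034. With median-centred libraries 18 were lower and 8 higher, and the share of rises over all called genes went from 43.2% to 55.1%. POLE3 (-1.06, SE 0.053, adjusted p = 4.77e-11), MCM5 (-0.79) and RFC4 (-0.69) were the lowest. PRIM2 (0.31), CCNE1 (0.30) and GMNN (0.28) were the highest, with CCNE1 at an adjusted p of 0.0455, which was lost in 12 of the alternatives run. The NT shRNA libraries enter this test and the shRNA comparisons alike.

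Between the 2 array groups, as labelled, limma called 0 members higher and 0 lower, where 0.146% and 0.139% of all tested genes were. At an unadjusted p under 0.05 there were 4 members, voom called 0, and the smallest adjusted p was 0.111 (ORC1, 0.16 from the labelled libraries and -0.16 in the authors' deposited table). The member differences ran from -0.15 to 0.16, with a median of 0.017. Array replicates differed more among themselves in recovered reads than those of the other groups, while the fit shared its spread over all groups. Without the library labelled ANXA4 array replicate 3, 1 member was called higher.

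Some members lay outside the range of all other libraries in the arrays, as did many other tested genes. Arrays, depth and any difference in handling cannot be told apart. 8 members (15.1%, against 9.31% of all tested genes) were higher in each of the 6 array libraries than in each of the other 15: GINS3, GMNN, PCNA, POLA2, POLE2, POLE3, RPA2 and RRM2. 5 (9.43%, a smaller share than the 11.9% of all tested genes) were lower: CDT1, E2F1, E2F2, POLD1 and POLE. CDT1 read 52.02, 54.1 and 49.98 FPKM in the libraries labelled NT array and 59.6, 59.3 and 53.4 in those labelled ANXA4 array, against 81.5, 86.6 and 89.5 with the NT gRNA. Its inhibitor GMNN lay opposite, at 131, 138 and 133 and 131, 129 and 133 against 87.8, 86.1 and 83.4. The subunits of polymerase epsilon were split again, with POLE lower and POLE2 and POLE3 higher. POLE4, at 53.7 to 72.4 FPKM in the arrays, overlapped the ANXA4 shRNA libraries (58.8 to 61.4 FPKM). None of the 7 comparisons made set the arrays against the other groups, so no test is given.

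**Figure D4:**
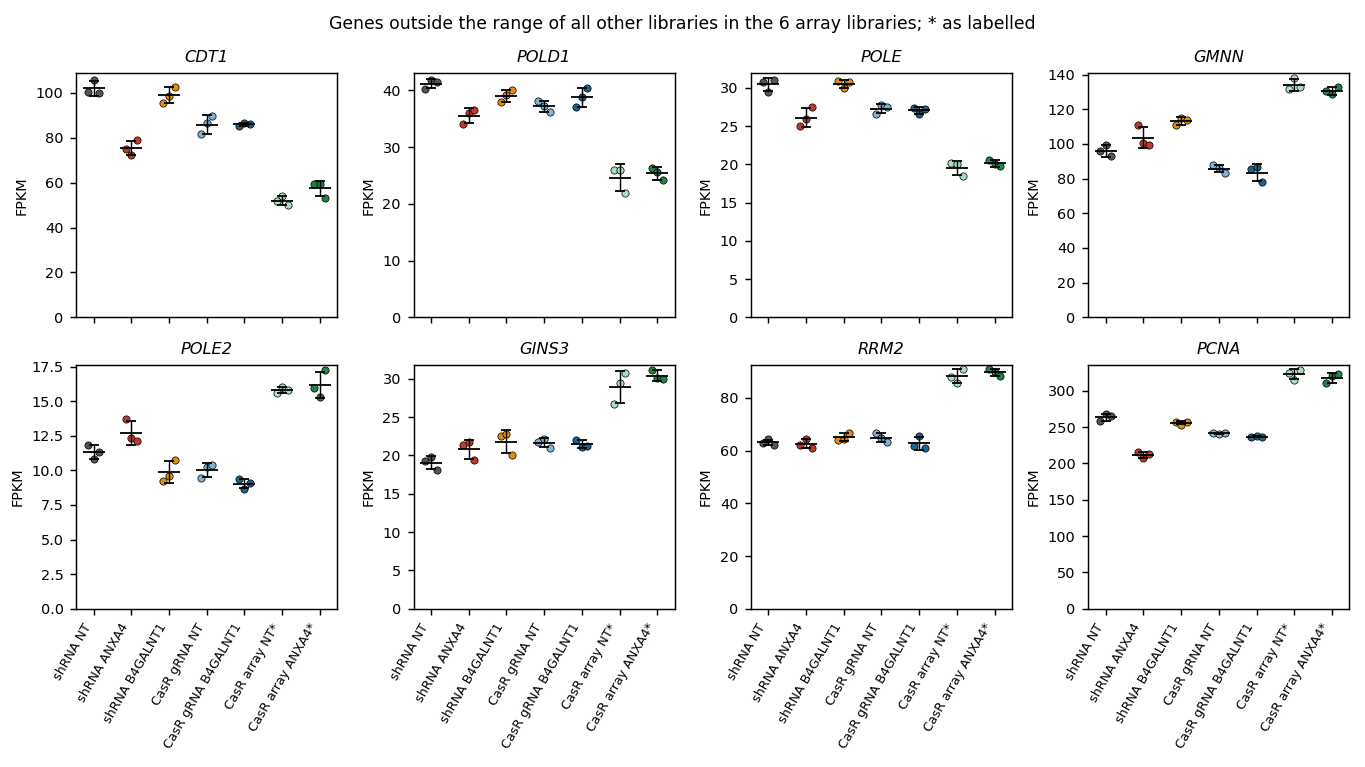
FPKM (vertical axis, from 0) of 8 members in each library (points), with the mean and SD of the 3 libraries of each group (bars). In the 6 array libraries CDT1, POLD1 and POLE lie below all others, and GMNN, POLE2, GINS3, RRM2 and PCNA above.

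Members with and without an E2F motif match in the promoter were among those that fell. With the ANXA4 shRNA 17 of 26 members with a match fell and 3 rose, and 13 of 19 members with no match fell and 2 rose, with medians of -0.22 and -0.23. With the B4GALNT1 shRNA 14 of 26 and 7 of 19 fell (medians -0.15 and -0.068), and with the NT gRNA against the NT shRNA 20 of 26 and 10 of 19 (medians -0.18 and -0.15). Among tested genes that are not members, 31.5% of 658 with a match and 26.6% of 9282 with none fell with the ANXA4 shRNA. Under the B4GALNT1 shRNA, 194 of those 658 and 2505 of those 9282 fell. In the NT gRNA against the NT shRNA, 38% of the 658 and 27.9% of the 9282 were lower. The shares of members lower there were 76.9% with a match and 52.6% with none. CCNE1 and POLE3, printed above with no capitals, are among the members with no match that fell with the ANXA4 shRNA. These are descriptions, with no test.

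Falls outnumbered rises among other genes of the pathway too. Of 36 further replication genes, 21 fell and 5 rose with the ANXA4 shRNA (median -0.20), 16 fell and 3 rose under the B4GALNT1 shRNA (median -0.11), and 22 were lower and 3 higher with the NT gRNA than with the NT shRNA (median -0.20). The shares of all tested genes in these 3 comparisons were 26.3%, 26% and 26.5% lower and 25.6%, 18.4% and 22.4% higher. DBF4, the activator of the CDC7 kinase, fell by 0.89 and TIMELESS, a fork protection factor, by 0.59 with the ANXA4 shRNA. RECQL4, a helicase, fell by 1.00 and TICRR, an initiation factor, by 0.59 with the B4GALNT1 shRNA. ORC3, another origin recognition subunit, rose by 0.59 and 0.62.

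The 24 genes of the RB pathway, cyclin D and CDK inhibitors were mixed: 7 fell and 7 rose with the ANXA4 shRNA (median -0.013), and 10 fell and 7 rose under the B4GALNT1 shRNA (median -0.056). With the NT gRNA against the NT shRNA 8 were lower and 11 higher (median 0.10). Over all tested genes, 26.3% fell and 25.6% rose with the ANXA4 shRNA, and 26% fell and 18.4% rose with the B4GALNT1 shRNA. For the NT gRNA against the NT shRNA those shares were 26.5% lower and 22.4% higher. In all, 58.3%, 70.8% and 79.2% of the 24 genes were called, against 51.8%, 44.4% and 48.9% of all tested genes. CDK4, a cyclin D kinase, fell by 1.06 and 1.11. CDK6, the other cyclin D kinase, rose by 1.23 with the ANXA4 shRNA and was 1.68 higher with it than with the B4GALNT1 shRNA (adjusted p = 5.75e-14). TFDP1, the binding partner of E2F factors, fell by 0.54 with the ANXA4 shRNA. E2F4 and E2F5, repressor E2Fs, rose by 0.70 and 0.69 with the B4GALNT1 shRNA, and the inhibitor CDKN2D fell by 1.02.

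Of 24 genes of G2 and mitosis, more were called lower than higher: 14 lower and 5 higher with the ANXA4 shRNA (median -0.19), 12 and 4 with the B4GALNT1 shRNA (median -0.20), and 14 and 3 for the NT gRNA against the NT shRNA (median -0.14). Of all tested genes 26.3%, 26% and 26.5% were lower and 25.6%, 18.4% and 22.4% higher in these comparisons. PTTG1, securin, fell by 0.78 with the ANXA4 shRNA and CDK1, the mitotic kinase, by 0.60 with the B4GALNT1 shRNA. CCNB1, cyclin B1, rose by 0.21 and 0.33. The part of a shift in the cell cycle in the members' differences was not tested.

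The genes whose 7 group means of log2(FPKM + 1) followed those of CCNE1 most closely were TICAM2 (Pearson's r 0.997), RAB8B (0.994) and RAC1 (0.987), as a description over 7 points with no p. RAC1, a small GTPase, was at 82.9 FPKM with the NT shRNA, 52.3 with the ANXA4 shRNA and 92.03 with the B4GALNT1 shRNA. Like CCNE1, each of these genes had 1 low group, the ANXA4 shRNA, on which r largely rests. TICAM2 was at 2.78 FPKM there against 4.49 to 5.37 in the other groups, and RAB8B at 2.38 against 4.59 to 5.58.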

How the data were processed

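Stranded mRNA libraries of HEK 293FT cells were sequenced in 7 groups of 3, taken from the labels. The authors deposited FPKM values for 27142 genes in 21 libraries; per the file headers, they come from HOMER, run on exons of the sense strand with transcripts condensed to genes. Their deposited comparison tables give each gene a log2 fold change with its adjusted p-value, used only as the authors' values. Per the submitters' processing notes, R 3.3.2, DESeq2 1.14.1, STAR, HOMER and FastQC were used, with build hg19; which step used which is not given in the sources used here.

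A gene was kept if 3 or more libraries had 1 FPKM or more (13679 genes). One linear model over all 7 groups was fitted to log2(FPKM + 1) with limma 3.58.1 (variance trend) in R 4.3.3, with Benjamini-Hochberg adjustment over all genes and a threshold of 0.05; 7 comparisons were made. With 3 libraries against 3, an exact permutation test cannot go below 0.1, so none is given. The fit was tested on simulated data first. FPKM times exon length gave whole reads (tolerance 0.1), used for depth and for voom. Replicates of a group differed by 5.91 to 13.03 in chi-square per degree of freedom of these reads in the arrays, and by 2.25 to 4.16 in the other groups. The arrays were also the deepest libraries, and the model gave each gene 1 spread shared by all groups. Promoters were searched with Python 3.11.15.

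Library values are printed for CCNE1, MCM5, DUT and POLE3 and for the 3 largest called rises and falls without overlap in a comparison (5 for the ANXA4 shRNA). Genes of other lists are named by the 2 smallest p-values per direction, and promoters and members outside these rules were chosen after their values were seen. Members, lists and rules were chosen with earlier results of these data known. Alternatives were other pseudocounts, filters and scalings, fewer groups, no trend, a replicate block, voom, a threshold of 0.01, the authors' calls and leaving out each library.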

Additional observations from a re-analysis of the deposited data

Results flagged for a closer look

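The B4GALNT1 shRNA and the RfxCasR B4GALNT1 gRNA, each against its own NT control, differed in their effects on the members. The difference between the 2 effects was tested with limma, adjusted over 13679 genes. By this test 19 of 53 members were lower and 5 higher with the shRNA, against 16.9% and 12.9% of all tested genes. With median-centred libraries 18 were lower and 8 higher. POLE3 was at -1.06 log2, MCM5 at -0.79 and RFC4 at -0.69. PRIM2 was at 0.31, CCNE1 at 0.30 and GMNN at 0.28. In the shRNA comparison alone these 6 genes differed by -1.09, -0.78, -0.65, 0.35, 0.19 and 0.24, and in the gRNA comparison alone by -0.038, 0.017, 0.041, 0.036, -0.11 and -0.039. The change of the target differed as well. B4GALNT1 went from 4.08 FPKM with the NT shRNA to 2.78 with its shRNA, and from 5.89 with the NT gRNA to 2.21 with its gRNA. The NT shRNA libraries enter this test, and that group had the highest mean for 25 of 53 members (47.2%, against 22.8% of all tested genes). For PRIM2 its libraries lay below those of every other group. Loss of B4GALNT1, hairpin, effector and control cannot be told apart here.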

How the results depend on the processing

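CCNE1, MCM5, DUT and POLE3, followed through every alternative, kept their direction wherever they were called. Uncalled differences did change sign. In the authors' table for the arrays the signs were opposite for 49 of 53 members, none of them called. There the opposite signs ran through the whole table, with 93.2% of all tested genes and all 40 genes called by either source, ANXA4 among them. The counts of members called lower stayed within 1.5 times in all the alternatives. The small counts of members called higher moved. With the ANXA4 shRNA the 5 became 3 with no filter, with only the groups compared and at 0.01, and 3 to 6 without 1 library (3 without shRNA NT replicate 3 or ANXA4 replicate 1). With the B4GALNT1 shRNA the 6 became 10 with median-centring, with voom and in the authors' deposited table. For the NT gRNA against the NT shRNA the 4 became 1 at 0.01 and 2 to 4 without 1 library (2 without shRNA NT replicate 1 or 3 or any NT gRNA library). For the difference of the B4GALNT1 effects the 5 became 8 with median-centring, 3 at 0.01 and 3 to 6 without 1 library (3 without shRNA NT replicate 2 or B4GALNT1 replicate 2). In the arrays the 0 became 0 to 1. CCNE1 in the difference of effects (0.30) was lost with no filter, with no variance trend, at 0.01 and without any of 9 of the libraries (0.23 to 0.32). The labels give the groups only shared replicate numbers: same-numbered libraries deviated with correlations of -0.146 to 0.09. With a replicate block, members called higher and lower were 5 and 35 (ANXA4 shRNA), 8 and 25 (B4GALNT1 shRNA), 3 and 34 (NT gRNA), 8 and 26 (shRNAs compared directly), 6 and 18 (difference of effects) and 0 and 0 for the B4GALNT1 gRNA and the arrays. The cause was not tested for any of these. The fewest reads behind a member's value were 251, and the part of depth in the results was not tested.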
